A study of Mus musculus with 2 samples.

Results

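This account covers 34 genes of glycolysis, pyruvate use and the hypoxia response, taken by their symbols from the 32589 features of the deposited tables. Aldoa has 2 rows with different identifiers, so the 34 genes occupy 35 rows. Glycolysis splits glucose into pyruvate, which is either reduced to lactate and exported or carried into mitochondria and turned into acetyl-CoA. The hypoxia-inducible factor HIF-1, whose oxygen-regulated subunit is encoded by Hif1a, is known to drive many genes of this route when oxygen is short, and also in activated myeloid cells. Microglia, the resident macrophages of the brain, can use both fates of pyruvate. The genes are described in the order of the pathway, from the glucose transporters through lactate export to oxygen sensing and the entry of pyruvate into mitochondria.

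The cells were taken from prefrontal cortex of C57BL/6 mice in a vehicle group and a corticosterone group. Corticosterone, the chief stress steroid of rodents, was given by oral gavage to model depression linked to a high level of this hormone. The cells were sorted as CD45low CD11b+, a gate for myeloid cells with little CD45, and profiled by single-cell RNA sequencing with 1 library per group. The sources used here state neither how many animals went into a library, nor their sex or age, nor how much corticosterone was given and for how long. Group and library cannot be told apart, so no difference below was checked in replicates or given a p-value, and every interval is at the 95% level and covers counting error only. The deposited tables carry the words wildtype and depression in their names, and each was assigned to vehicle or corticosterone through the sample record that lists it.

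After filtering, 10500 vehicle cells and 17883 corticosterone cells remained, with medians of 3220.5 and 3961 UMIs, the molecular tags that count each captured transcript a single time. Clusters named from marker genes gave 7852 and 15234 microglia-like cells, 1057 and 795 border-associated macrophage-like cells (called macrophage-like here) and 437 and 397 neutrophil-like cells. All 10 microglia markers, P2ry12, Tmem119 and Sall1 among them, were detected in the microglia-like cells of both libraries. Most vehicle cells of this class lay in a cluster with Pecam1 among its leading genes (7333 cells), and most corticosterone cells in clusters led by Il1b and Kcnj10 (9448 cells), by Ifi30 and Fcgr4 (4908 cells) and by Ifit2 and Ifit3 (638 cells). In microglia-like cells the median number of UMIs was 3179 in vehicle and 3999 in corticosterone, and the median mitochondrial share of UMIs was 2.45% and 4.10%. The part that these shifts in depth and mitochondrial share had in the results was not tested apart from the restricted sets of cells given below. The libraries shared 104 cell barcodes.

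HIF-1 binds DNA at a short core, ACGTG or GCGTG, of the hypoxia response element. The promoters of 4 members on which the results turn are shown. Ldha and Slc16a3 were called higher in corticosterone in at least 1 class, as were Gpi1, Gapdh, Eno1, Pkm and Slc2a3, which are not shown. Ldhb and Pdk1 are 2 of the 4 called lower in at least 1 class, with Hif1a and Vhl not shown. Ldha and Ldhb encode the subunits of lactate dehydrogenase, Slc16a3 the lactate exporter MCT4, and Pdk1 a kinase that switches pyruvate dehydrogenase off. Each sequence runs 5′ to 3′ from 250 bases before to 50 bases after the first listed start in RefSeq, build GRCm38.p6. Capitals mark ACGTG or GCGTG on either strand, and CACGTG, the E-box, holds ACGTG on both strands and so counts as 2 matches.
Ldha, chr7:46845554-46845853, plus strand: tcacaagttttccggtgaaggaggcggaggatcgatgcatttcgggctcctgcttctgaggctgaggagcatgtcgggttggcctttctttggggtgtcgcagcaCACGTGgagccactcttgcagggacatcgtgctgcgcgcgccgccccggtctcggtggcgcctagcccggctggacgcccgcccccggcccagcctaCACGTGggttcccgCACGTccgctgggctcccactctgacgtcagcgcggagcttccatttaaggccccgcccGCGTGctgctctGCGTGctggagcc
Ldhb, chr6:142507908-142508207, minus strand: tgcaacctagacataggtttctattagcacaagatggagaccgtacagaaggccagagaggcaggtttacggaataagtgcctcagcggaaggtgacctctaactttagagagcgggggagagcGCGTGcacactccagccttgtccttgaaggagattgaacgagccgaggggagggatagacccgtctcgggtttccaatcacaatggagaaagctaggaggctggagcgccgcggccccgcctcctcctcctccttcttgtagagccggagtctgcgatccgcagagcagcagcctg
Slc16a3, chr11:120948817-120949116, plus strand: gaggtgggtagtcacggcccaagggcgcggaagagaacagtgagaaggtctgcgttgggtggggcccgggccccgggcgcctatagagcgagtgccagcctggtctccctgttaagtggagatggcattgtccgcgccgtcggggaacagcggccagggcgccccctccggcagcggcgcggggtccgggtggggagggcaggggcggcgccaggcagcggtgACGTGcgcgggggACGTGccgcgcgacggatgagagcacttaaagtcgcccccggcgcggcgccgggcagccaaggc
Pdk1, chr2:71872974-71873273, plus strand: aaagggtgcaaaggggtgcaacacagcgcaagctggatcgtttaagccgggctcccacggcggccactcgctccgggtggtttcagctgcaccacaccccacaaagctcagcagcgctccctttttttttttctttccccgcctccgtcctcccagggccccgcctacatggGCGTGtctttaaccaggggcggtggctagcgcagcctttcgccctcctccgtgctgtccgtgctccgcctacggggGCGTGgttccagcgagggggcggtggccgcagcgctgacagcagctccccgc
The Ldha window held 5 matches to ACGTG and 2 to GCGTG, that of Ldhb 1 GCGTG, that of Slc16a3 2 ACGTG and that of Pdk1 2 GCGTG. Among called members not shown, the windows of Gpi1, Pkm and Vhl held 0 matches to either core. That of Eno1 held 2, and those of Gapdh and Hif1a 3 each. Of the 33 members with a promoter entry, 17 (51.5%) held ACGTG, against 19.7% of 27025 RefSeq promoters of the same length. GCGTG was found in 18 members (54.5%, against 32.5%), either core in 26 members (78.8%, against 43.8%) and CACGTG in 5 members (15.2%, against 7.24%). Slc2a3 did not match an entry. Base composition was not matched in this comparison, and a match is a description of letters, not of binding.

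In microglia-like cells, 3 glycolytic enzymes (Gpi1, Gapdh and Eno1), Ldha and the lactate exporter Slc16a3 were higher in corticosterone, while Hif1a and Pdk1 were lower. Summed UMIs of the class were expressed as CPM, that is, per 1e+06 summed UMIs, and a log2 ratio is always that of corticosterone to vehicle CPM. A gene was counted with a mean of at least 20 CPM over both libraries, and called higher or lower at a log2 ratio of at least 0.5 in size, which is 1.41-fold. Of the 34 genes 28 reached that level, and of these 5 were called higher (17.9%, where 7.1% of 6606 genes were) and 2 were called lower (7.14%, where 6.28% were). The share called lower was thus near that of all genes. The members' median log2 ratio was 0.19 and that of all genes 0.00, and 19 of the 28 lay above 0. As a share of all UMIs of the class, the 34 genes took 0.377% in vehicle and 0.442% in corticosterone. With edgeR TMM scaling the split was 6 higher (where 10.2% of all genes were) and 1 lower (4.65%). With DESeq2 size factors it was 7 higher (11.0%) and 1 lower (4.27%). These scalings moved the median of all genes to 0.09 and 0.11.

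**Figure D1:**
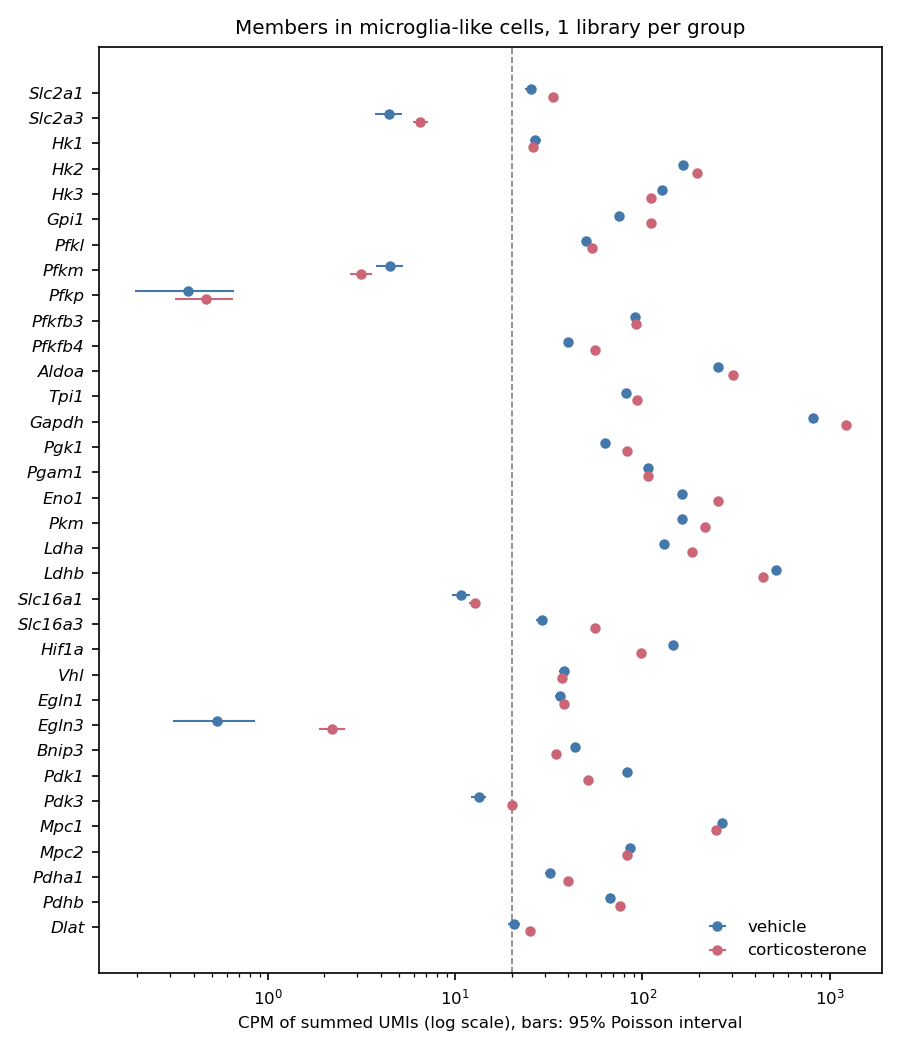
Level of each of the 34 genes in microglia-like cells, in CPM of summed UMIs on a log axis, with 1 point per library (blue, vehicle; red, corticosterone) and 95% Poisson intervals. The dashed line marks 20 CPM; Gapdh and Ldhb had the highest levels, and Slc2a3, Pfkm, Pfkp, Slc16a1 and Egln3 lay below the line in both libraries.

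Glucose enters through facilitative transporters. Slc2a1, which encodes GLUT1, was at 25.3 CPM with vehicle and at 33.2 CPM with corticosterone (log2 ratio 0.39, interval 0.28 to 0.51). Slc2a3, the high-affinity GLUT3, lay below 20 CPM in microglia-like cells, at 4.41 and 6.51 CPM. Of the UMIs of both transporters, Slc2a3 took 14.8% (exact binomial interval 12.6 to 17.2%) in vehicle and 16.4% (15.0 to 17.8%) in corticosterone, and these intervals overlapped.

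Hexokinases trap glucose as glucose 6-phosphate. Hk1, the housekeeping form, was at 26.8 and 26.2 CPM in vehicle and corticosterone. Hk2, the inducible form, was at 164 and 196 CPM (0.26), and Hk3, a form typical of myeloid cells, at 127 and 111 CPM (-0.19). None of these 3 reached the threshold. Within the hexokinase UMIs the share of Hk2 was 51.6% (50.7 to 52.6%) in vehicle and 58.7% (58.1 to 59.3%) in corticosterone, and that of Hk3 39.9% and 33.4%. Such shares count captured UMIs, whose yield can differ between genes, so they are compared between libraries and cell classes only.

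The next step is the isomerase. Gpi1, glucose-6-phosphate isomerase, was at 74.8 CPM with vehicle and at 110.6 CPM with corticosterone, a log2 ratio of 0.56 (0.50 to 0.63). Phosphofructokinase commits the sugar to glycolysis, and Pfkl, its liver-type subunit, was at 49.7 and 54.0 CPM (0.12). The muscle-type Pfkm was at 4.47 and 3.14 CPM and the platelet-type Pfkp had 12 and 33 UMIs, both too low to be counted. Pfkl made up 91.1% and 93.7% of the UMIs of the 3 subunits.

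PFKFB enzymes make or remove fructose 2,6-bisphosphate, the activator of phosphofructokinase. Pfkfb3 was at 90.9 and 92.4 CPM (0.02, interval -0.04 to 0.09). Pfkfb4 was at 40.0 and 55.6 CPM (0.47), the value just below the threshold, while Ldha with 0.50 was the value just above it. The share of Pfkfb4 in the UMIs of the pair was 30.6% (29.2 to 32.0%) in vehicle and 37.6% (36.6 to 38.5%) in corticosterone.

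Below that step 7 enzymes take fructose bisphosphate to pyruvate, and 2 of them were called higher. Gapdh, which makes the NADH of glycolysis, was at 812 CPM (802 to 822) with vehicle and at 1222 CPM (1214 to 1230) with corticosterone, a log2 ratio of 0.59 (0.57 to 0.61). Eno1, enolase, was at 163 CPM (159 to 168) and 255 CPM (251 to 258), a log2 ratio of 0.64 (0.60 to 0.69). The other 5 lay between 0.01 and 0.40. They were Pgam1, the mutase (107 and 107 CPM, 0.01), Tpi1, triose-phosphate isomerase (81.7 and 93.9 CPM, 0.20), and Aldoa, aldolase A (252.5 and 303.5 CPM, 0.27). Pgk1, which forms ATP, was at 63.3 and 82.8 CPM (0.39), and Pkm, pyruvate kinase, at 163 and 216 CPM (0.40). The second Aldoa row held 3 and 12 UMIs. Of near-identical copies, Eno1b had 56 and 223 UMIs, 1.1% and 1.2% of those of Eno1 and Eno1b, Gapdhs 1 and 2, and Ldhc 2 and 2. How reads that match a member and its copy were assigned is not given in the sources used here.

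At the lactate branch the subunits of lactate dehydrogenase differed in direction. Ldha, the subunit that favours lactate formation, was at 130 CPM (126 to 134) with vehicle and at 184 CPM (181 to 187) with corticosterone (0.50, interval 0.45 to 0.55). Ldhb, the subunit associated with lactate use, was at 520 CPM (512 to 528) and 443 CPM (438 to 448), a log2 ratio of -0.23 that did not reach the threshold. The Ldha share of their UMIs was 20.0% (19.5 to 20.5%) in vehicle and 29.3% (28.9 to 29.8%) in corticosterone. Lactate leaves through monocarboxylate transporters, and Slc16a3 (MCT4) was at 28.9 CPM (27.1 to 30.9) with vehicle and at 55.8 CPM (54.1 to 57.6) with corticosterone. Its log2 ratio of 0.95 (0.84 to 1.05) was the highest of the 28 members. Slc16a1, which encodes MCT1, was below 20 CPM at 10.7 and 12.7 CPM. Slc16a3 took 73.0% (70.4 to 75.4%) of the UMIs of both transporters in vehicle and 81.5% (80.4 to 82.6%) in corticosterone.

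**Figure D2:**
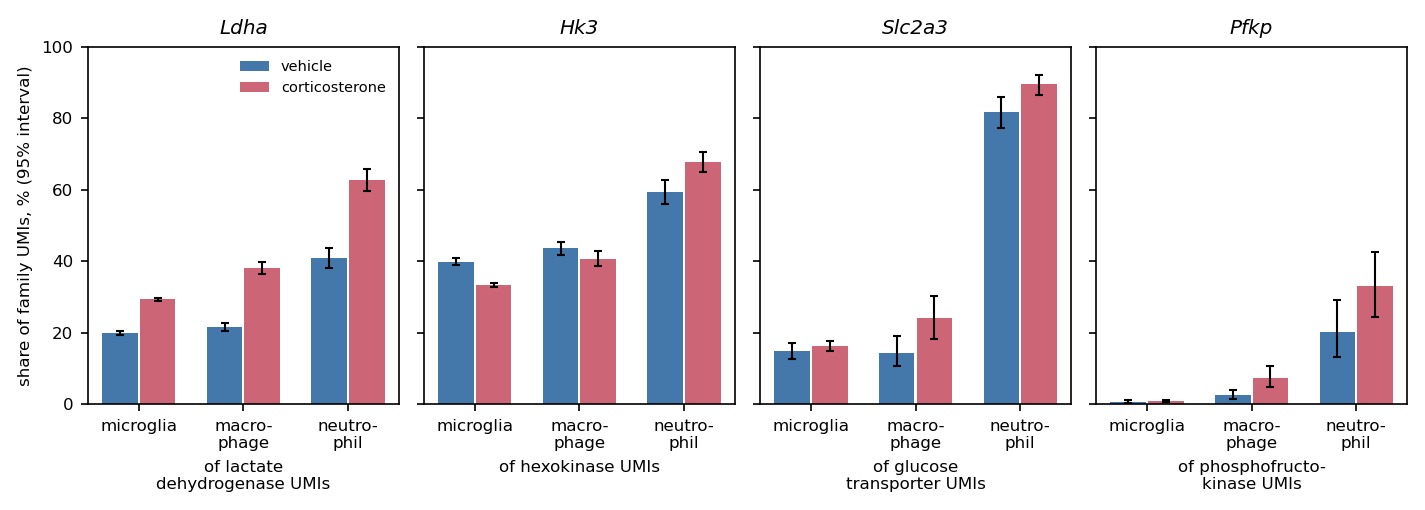
Share of a gene in the summed UMIs of its family, in percent, for Ldha, Hk3, Slc2a3 and Pfkp in microglia-like, macrophage-like and neutrophil-like cells of the vehicle (blue) and corticosterone (red) libraries, with exact binomial 95% intervals. The Ldha share was higher in corticosterone in each class, and Slc2a3 and Pfkp took a larger share in neutrophil-like cells than in the other 2 classes. Microglia marker RNA in macrophage-like and neutrophil-like cells differed between the libraries, and its part in these shares was not tested. The glucose transporters summed here are Slc2a1 and Slc2a3 only.

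Among the oxygen-sensing genes Hif1a was called lower and 0 were called higher. Hif1a was at 145 CPM (141 to 150) with vehicle and at 98.4 CPM (96.1 to 101) with corticosterone, a log2 ratio of -0.56 (-0.62 to -0.51). Vhl, part of the ligase that marks the HIF-1 subunit for destruction, was at 38.0 and 37.1 CPM (-0.04). Egln1, the main prolyl hydroxylase that senses oxygen, was at 36.1 and 37.9 CPM (0.07). Egln3, an inducible hydroxylase, was near the limit of detection with 17 UMIs (interval 0.310 to 0.851 CPM) in vehicle and 156 UMIs (interval 1.86 to 2.56 CPM) in corticosterone, so its intervals did not overlap although it was too low to be counted. Bnip3, a mitophagy receptor and known HIF-1 target, was at 43.7 and 34.6 CPM (-0.34). Hif1a RNA does not report HIF-1 activity, which is set mainly by the stability of the protein and was not measured.

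At the entry of pyruvate into mitochondria, the libraries differed in the mix of Pdk1 and Pdk3, kinases that switch pyruvate dehydrogenase off. Other kinases of this family are not among the members and were left out of the shares given here. Pdk1 was at 82.9 CPM (79.8 to 86.2) with vehicle and at 51.4 CPM (49.7 to 53.1) with corticosterone, a log2 ratio of -0.69 (-0.76 to -0.62) that was the lowest of the 28. Pdk3, with a mean below 20 CPM, was at 13.3 and 20.1 CPM (0.59), and its share of the UMIs of both kinases was 13.9% (12.7 to 15.1%) in vehicle and 28.2% (26.9 to 29.4%) in corticosterone. The pyruvate carrier subunits Mpc1 (267 and 248 CPM, -0.10) and Mpc2 (85.9 and 82.3 CPM, -0.06) differed little. The pyruvate dehydrogenase subunits Pdha1 (32.2 and 40.0 CPM, 0.31), Pdhb (67.3 and 76.1 CPM, 0.18) and Dlat (20.7 and 25.1 CPM, 0.28) lay above 0 and below the threshold.

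The calls differed in how close they lay to the threshold. Over 14 alternative scalings, cell sets and class rules, Gapdh, Eno1, Slc16a3 and Pdk1 passed it in each. Ldha fell short in 9 of the 14, with a lowest value of 0.43, Gpi1 in 3, with a lowest value of 0.46, and Hif1a in 2, at -0.47 with TMM and -0.46 with DESeq2 scaling. In cells with 3000 to 5000 UMIs (2604 and 7452 cells) Gapdh had a log2 ratio of 0.52, Gpi1 0.48 and Ldha 0.43. With at most 10% mitochondrial UMIs and at least 1000 UMIs per cell, these were 0.59, 0.57 and 0.50.

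**Figure D3:**
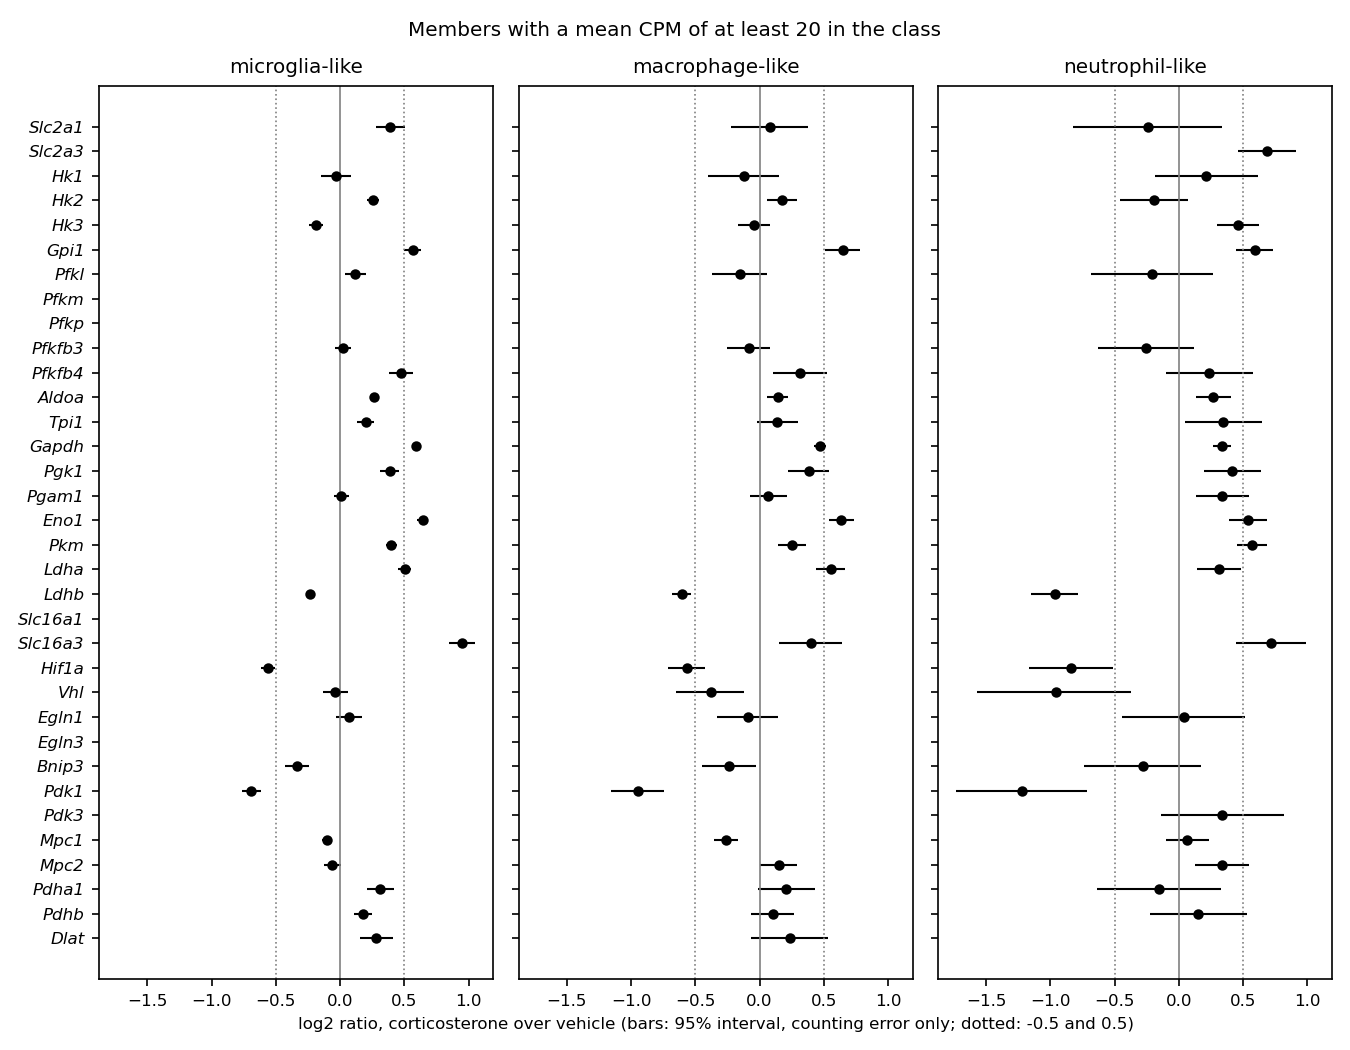
Log2 ratio of CPM, corticosterone over vehicle, for members with a mean of at least 20 CPM in microglia-like, macrophage-like and neutrophil-like cells, with 95% intervals for counting error; dotted lines mark -0.5 and 0.5. Gpi1 and Eno1 lay right of 0.5, and Hif1a and Pdk1 left of -0.5, in each of the 3 classes.

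The same directions were looked for within subclusters of microglia-like cells, which do not match the clusters above that the 2 libraries filled unevenly. When each gene was centred within its library and the members were left out, 4 subclusters held at least 50 cells of each library. They were led by Nr4a1 and Egr3 (4869 and 9405 cells), Cmss1 and Rgs1 (2526 and 4700 cells), the interferon-induced Ifi211 and Ifit3b (184 and 924 cells), and Camp and Ngp, which are neutrophil granule genes (256 and 202 cells). The median log2 ratio of the 28 members was 0.21, 0.14, 0.12 and 0.25 in this order. Centring removed the mean difference of each gene between the libraries before grouping, and the first 2 subclusters held most cells of each library. Their signs therefore largely repeat those of the class. Gpi1 (0.31 to 0.59), Gapdh (0.36 to 0.72), Eno1 (0.31 to 0.67), Ldha (0.23 to 0.71) and Slc16a3 (0.46 to 1.07) lay above 0 in the 4 subclusters. Ldhb (-0.47 to -0.09), Hif1a (-0.74 to -0.38) and Pdk1 (-0.71 to -0.32) lay below 0 in the 4. In the smallest, led by Camp and Ngp, the counting intervals of Gpi1 (-0.19 to 0.82), Eno1 (-0.01 to 0.64), Ldha (-0.19 to 0.64), Slc16a3 (-0.26 to 1.20) and Pdk1 (-0.90 to 0.25) included 0, and those of Gapdh, Ldhb and Hif1a did not. Hk3 was above 0 only in that subcluster (0.25), and Bnip3 only in the one led by interferon-induced genes (0.36).

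How many cells held a UMI of a gene was compared with background for 4 members. Each cell was thinned to 1000 UMIs, which left 7260 vehicle and 15141 corticosterone microglia-like cells and left out 592 and 93 shallower ones. Ldha was then found in 11.8% and 15.9% of cells (33.3% and 48.7% before thinning), Hif1a in 13.5% and 8.96% (37.1% and 32.6% before) and Slc16a3 in 2.63% and 5.32% (9.96% and 20.5% before). Erythroid-like barcodes, used as the background, had median depths of 2530 and 3787 UMIs, and 130 and 64 of them could be thinned. Each of these 6 thinned shares lay within the exact interval of the erythroid-like one, for Ldha 3.75 to 13.7% and 5.55 to 23.2%, for Hif1a 6.01 to 17.4% and 4.51 to 21.2%, and for Slc16a3 0.019 to 4.21% and 1.73 to 15.2%. For these 3 genes a share of cells above that of erythroid-like barcodes was therefore not detectable. Those barcodes carried microglia markers at a median of 0.801 and 0.817 of the microglia-like level and are no clean background. They held Ldha at 97.6 and 132 CPM, Hif1a at 93.4 and 102 CPM and Slc16a3 at 22.8 and 52.6 CPM. Whether erythroid-like cells express these genes themselves was not tested, so the comparison cannot decide whether microglia-like cells do. Slc2a3 was found in 15.1% (11.5 to 19.3%) and 21.8% (17.8 to 26.2%) of thinned neutrophil-like cells (345 and 390, with 92 and 7 left out), whose class had median depths of 2744 and 3724 UMIs. Before thinning these shares were 32.0% and 52.6%, and after it 1 of 130 and 0 of 64 erythroid-like barcodes held Slc2a3 (intervals up to 4.21% and 5.60%).

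In macrophage-like cells Gpi1, Eno1 and Ldha were called higher and Ldhb, Hif1a and Pdk1 lower. Of 28 members at 20 CPM or more, 3 were called higher (10.7%, where 8.37% of 6569 genes were) and 3 were called lower (10.7%, where 6.58% were), shares not far from those of all genes. The median was 0.12, and that of all genes 0.02. The higher ones were Gpi1 (81.2 and 127 CPM, 0.65, interval 0.51 to 0.79), Eno1 (151 and 235 CPM, 0.64, interval 0.54 to 0.74) and Ldha (127 and 187 CPM, 0.55, interval 0.44 to 0.66). The lower ones were Ldhb (461 and 303 CPM, -0.61), Hif1a (125 and 84.2 CPM, -0.57) and Pdk1 (71.7 and 37.2 CPM, -0.95). Gapdh (735 and 1016 CPM, 0.47) and Slc16a3 (27.5 and 36.2 CPM, 0.40) did not reach the threshold. The remaining 20 lay between -0.38 (Vhl) and 0.38 (Pgk1), with Pkm at 0.25, Hk2 at 0.17 and Slc2a1 at 0.08. The Ldha share of lactate dehydrogenase UMIs was 21.6% (20.6 to 22.6%) in vehicle and 38.1% (36.5 to 39.8%) in corticosterone. Pdk3 took 18.2% (15.8 to 20.7%) and 29.5% (24.9 to 34.5%) of the UMIs of Pdk1 and Pdk3.

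The purity of this class differed between the libraries, which bears on these values. The 8 macrophage markers, each detected, summed to 3840 CPM with vehicle and to 7557 CPM with corticosterone, and the 10 microglia markers stood at a median of 0.861 and 0.672 of their microglia-like level. In the barcodes at or below the median share of microglia marker UMIs in each library (529 and 398), Gpi1 was at 0.62, Eno1 at 0.76, Ldhb at -1.41, Hif1a at -0.68 and Pdk1 at -1.27, while Ldha was at 0.40 and Slc16a3 at -0.01. At the finer Leiden resolution of 1, which left 211 vehicle and 783 corticosterone cells in the class, Ldhb turned to 0.32, Hif1a was at -0.09, Gpi1 at 0.40 and Slc16a3 at 1.45. At that resolution 8 members were called higher (where 12.2% of all genes were) and 1 lower (12.5%). The direction of Ldhb in macrophage-like cells therefore depended on how the class was drawn. That of Slc16a3 did too, with -0.78 in cells of 3000 to 5000 UMIs (216 and 136 cells). At resolution 1 an unnamed cluster led by Cd209f, Cd209a and Cd209g held 870 vehicle and 15 corticosterone cells. In the macrophage-like class the 6 dendritic cell markers, with Clec9a and Ccr7 undetected, summed to 121 CPM with vehicle and 16.0 CPM with corticosterone. The mix of cells in the class may thus have differed between the libraries, and its part in the ratios was not tested.

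In neutrophil-like cells, which rely on glycolysis for energy, Slc2a3, Gpi1, Eno1, Pkm and Slc16a3 were called higher and Ldhb, Hif1a, Vhl and Pdk1 lower, from fewer cells than in the other 2 classes. Of 29 members at 20 CPM or more, 5 were called higher (17.2%, where 10.6% of 5904 genes were) and 4 were called lower (13.8%, where 19.1% were). The share called lower was thus below that of all genes. The median was 0.24, and that of all genes -0.10. With TMM scaling, which moved the median of all genes to 0.07, the split was 10 higher (where 16.8% of all genes were) and 4 lower (11.7%). The members' median was then 0.40. The higher ones span the route from uptake to export. Slc2a3 was at 114 CPM (100 to 129) with vehicle and at 183 CPM (166 to 201) with corticosterone (0.68), and Gpi1 at 289 and 435 CPM (0.59). Eno1 was at 282 and 410 CPM (0.54), Pkm at 451 and 668 CPM (0.57), and Slc16a3 at 80.7 CPM (69.4 to 93.4) and 133 CPM (118 to 148) (0.72).

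The lower members in these cells were Ldhb (326 and 167 CPM, -0.97, interval -1.15 to -0.79), Hif1a (94.2 and 52.7 CPM, -0.84), Vhl (31.4 and 16.1 CPM, -0.96) and Pdk1 (48.4 and 20.8 CPM, -1.22). Vhl rests on 70 and 38 UMIs and Pdk1 on 108 and 49. Ldha, at 226 and 281 CPM (0.31), did not reach the threshold, yet its share of lactate dehydrogenase UMIs was 41.0% (38.3 to 43.8%) in vehicle and 62.8% (59.8 to 65.7%) in corticosterone. Pdk3 took 37.9% (30.7 to 45.6%) and 64.2% (55.6 to 72.2%) of the UMIs of Pdk1 and Pdk3, with other kinases of the family left out. Hk3, the main hexokinase of these cells by UMIs, was at 229 and 314 CPM (0.46), and Gapdh at 1303 and 1639 CPM (0.33). The other counted members lay between -0.28 (Bnip3) and 0.42 (Pgk1), with Mpc2 at 0.33, Aldoa at 0.27 and Hk2 at -0.19. Pfkm, Pfkp, Slc16a1, Egln3 and Dlat were below 20 CPM here.

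Microglia marker RNA moved with these values. The 10 microglia markers, none at 0, summed to 21659 CPM in vehicle neutrophil-like cells and 12344 CPM in corticosterone ones, and their median share per barcode was 1.60% and 0.214%. In the barcodes at or below the median share of each library (219 and 199 barcodes, medians 0.489% and 0.118%), 0 members were called higher and 4 were called lower (Ldhb, Hif1a, Pdha1 and Pfkp). Of all genes in these barcodes, 10.3% were called higher and 22.7% lower. There Slc2a3 was at 216 and 254 CPM (0.23), Gpi1 at 566 and 633 CPM (0.16), Pkm at 739 and 912 CPM (0.30), Eno1 at 0.42 and Slc16a3 at 124 and 149 CPM (0.26). Ldhb was at -2.47 there, from 63 and 15 UMIs, and Hif1a at -0.81, from 44 and 33 UMIs. Pdk1 (8 and 6 UMIs) and Vhl (11 and 6 UMIs) were below 20 CPM in these barcodes. The 5 higher genes of the class thus fell short of the threshold in the barcodes with less microglia marker RNA, while Ldhb and Hif1a passed it. The marker share still differed between the libraries there, and Ldhb and Hif1a stood higher in microglia-like than in neutrophil-like cells. What microglia RNA contributed to the ratios in these barcodes was not tested.

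The class is a mix of 2 clusters in different proportion, one led by Clec4d, Cxcr2 and Slfn4 (199 and 274 cells) and one led by the granule genes Camp, Ngp and Ltf (238 and 123 cells). Slc2a3 had log2 ratios of 0.69 and 0.68 in the first and second cluster, Gpi1 0.52 and 0.62, Pkm 0.52 and 0.60, and Slc16a3 0.77 and 0.60. Eno1 had 0.39 and 0.65, so it fell short of the threshold in the first cluster. Ldhb had -0.82 and -1.46, Hif1a -0.57 and -1.71, Pdk1 -1.38 and -0.76, and Vhl -0.80 and -1.34. In the second cluster Pdk1 and Vhl had means below 20 CPM, and the Pdk1 interval (-1.79 to 0.23) included 0. Gpi1 stood higher in the granule-gene cluster (437 and 672 CPM) than in the other (165 and 238 CPM), and so did Ldha (310 and 426 CPM against 156 and 160 CPM). At Leiden resolution 1, the neutrophil-like cells outside the cluster led by Clec4d fell into 3 clusters, of 121 and 108, 136 and 5, and 21 and 13 cells. The mix thus differed between the libraries within the granule-gene cells too, and its part in the ratios of the class and of that cluster was not tested.

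**Figure D4:**
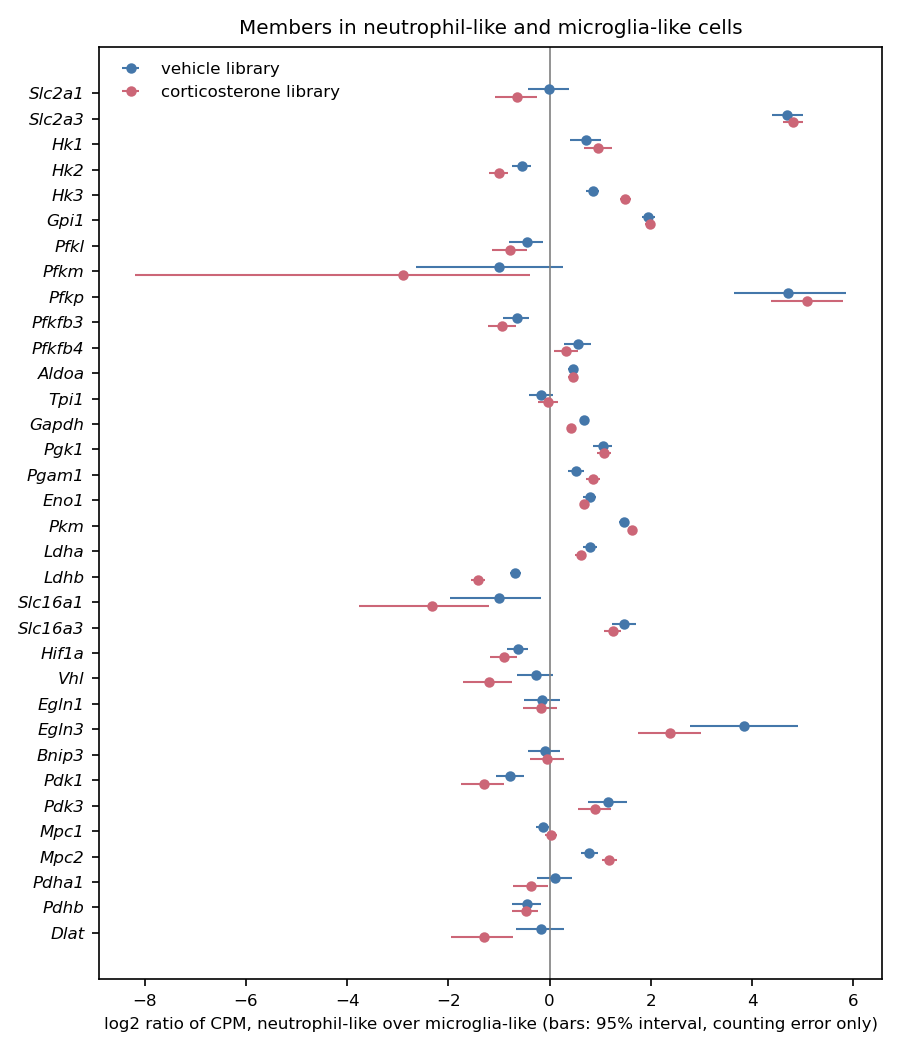
Log2 ratio of CPM, neutrophil-like over microglia-like cells, for each member in the vehicle library (blue) and the corticosterone library (red), with 95% intervals for counting error. Slc2a3 and Pfkp lay furthest to the right, at 4.69 and 4.72 in vehicle, and Ldhb and Pdk1 to the left of 0 in both libraries.

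Isozymes of the same step had different levels in neutrophil-like and microglia-like cells of both libraries. Slc2a3 was higher in neutrophil-like than in microglia-like cells by a log2 ratio of 4.69 (4.39 to 5.00) in vehicle and 4.81 (4.62 to 5.01) in corticosterone. In neutrophil-like cells it took 81.9% and 89.6% of the UMIs of Slc2a1 and Slc2a3. Pfkp was higher by 4.72 (3.64 to 5.87) and 5.08 (4.37 to 5.81), from 22 and 37 neutrophil-like UMIs, and Egln3 by 3.84 (2.78 to 4.90) and 2.39 (1.74 to 2.99). Gpi1 (1.95 and 1.98), Pkm (1.46 and 1.63), Slc16a3 (1.48 and 1.25) and Pgk1 (1.05 and 1.08) were higher in neutrophil-like cells as well. Ldhb (-0.68 and -1.41), Pdk1 (-0.78 and -1.30), Hif1a (-0.63 and -0.90) and Pfkfb3 (-0.65 and -0.93) were lower. In the neutrophil-like barcodes with less microglia marker RNA the gaps were wider for Gpi1 (2.92 and 2.52), Pkm (2.18 and 2.08), Ldhb (-2.55 and -4.78) and Pdk1 (-2.88 and -3.00). Those of Pfkp (6.23 and 4.91) and Egln3 (4.22 and 2.29) were wider in vehicle and slightly narrower in corticosterone. These barcodes were chosen by their microglia marker RNA, so their gaps to microglia-like cells are not independent of that choice.

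Neighbouring pathways give the setting of these values in microglia-like cells. The shares of all genes called higher or lower in each class, given above, are the background for these counts. In the pentose phosphate pathway, which branches off at glucose 6-phosphate and makes NADPH, 4 of 8 counted genes were higher and 0 lower, with a median of 0.41. Tkt, transketolase, was at 97.2 and 194 CPM (log2 interval 0.94 to 1.06), G6pdx, the entry enzyme, at 0.59, Pgd at 0.77, Taldo1 at 0.54 and H6pd at -0.04. The pathway had 3 of 8 higher in macrophage-like cells (median 0.31, from H6pd at 0.06 to Tkt at 0.76) and 4 of 7 higher in neutrophil-like cells (median 0.56, from Rpia at 0.26 to Pgd at 0.80). Of 16 counted citric acid cycle genes, 1 was higher and 0 lower (median 0.14, from Sdhc at -0.06 to Mdh2 at 0.51). The malate-aspartate shuttle, which carries NADH equivalents into mitochondria, had 0 of 5 called (median 0.35, from Slc25a11 at -0.01 to Got2 at 0.47). Of 3 counted glycogen genes 0 were called (Ugp2 at 0.19, Gsk3b at -0.31), and Dld, the remaining counted pyruvate dehydrogenase gene, was at 0.12.

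Of 6 counted hypoxia-inducible genes outside the 34, 0 were called higher and 2 lower in microglia-like cells (median -0.28), where 7.1% and 6.28% of all genes were. In macrophage-like cells 0 of 6 were higher and 1 lower (median -0.34, from P4ha1 at -0.77 to Fam162a at 0.37). In neutrophil-like cells 2 of 7 were higher and 1 lower (median -0.02), with Fam162a at 0.73, Ero1l at 0.57 and P4ha1 at -1.22. Of all genes, 8.37% were higher and 6.58% lower in macrophage-like cells, and 10.6% and 19.1% in neutrophil-like cells. The medians of all genes in these classes were 0.02 and -0.10. The lists below, with their lower calls in neutrophil-like cells, are to be read against these shares and medians as well. In microglia-like cells P4ha1, a collagen prolyl hydroxylase, was at 307 and 204 CPM (-0.59, interval -0.62 to -0.55), Mxi1 at -0.55 and Fam162a at 0.10. Vegfa, the vascular growth factor, was below the level for counting with 162 and 89 UMIs (5.06 and 1.25 CPM), and is named with Mxi1 and Ero1l after its values were seen. Of 7 counted regulators of the pathway 0 were called in microglia-like cells (median -0.04, from Siah2 at -0.45 to Egln2 at 0.33). Among 4 glycolysis genes outside the 34 that were counted in microglia-like cells, Slc2a5, the fructose transporter GLUT5 that marks microglia, was at 512 and 297 CPM (-0.79), and Adpgk at 0.49. Genes transcribed from mitochondrial DNA had 5 of 12 higher and 0 lower in microglia-like cells (median 0.47, from mt-Nd3 at -0.04 to mt-Atp6 at 0.72), 0 of 12 called in macrophage-like cells (median 0.13), and 0 higher and 2 lower in neutrophil-like cells (median -0.26). Genes induced by tissue dissociation had 0 of 14 higher and 2 lower in microglia-like cells (median -0.19, from Fosb at -0.86 to Dusp1 at 0.46), 1 higher and 2 lower in macrophage-like cells (median -0.26), and 1 higher and 5 lower in neutrophil-like cells (median -0.41). Of 4 counted clock genes 0 were higher and 3 lower in microglia-like (median -1.42, from Tef at -2.72 to Clock at -0.26) and in macrophage-like cells (median -1.13), 0 of 2 were called in neutrophil-like cells, and the time of day at which tissue was taken was not stated. What these accompanying differences contributed to the members' values was not tested.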

How the data were processed

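Deposited tables hold raw UMI counts per gene and barcode as the authors made them, whole numbers with totals that differ between cells. Per the submitters' processing notes, bcl2fastq 2.19 and build GRCm38 were used; the aligner, counter, annotation and cell calling are not given in the sources used here. Per the labels' protocols, tissue was digested at 37 °C before sorting, and libraries were made with a Singleron GEXSCOPE kit.

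Cells had at least 500 UMIs, 300 genes and at most 20% mitochondrial UMIs, leaving 49325067 vehicle and 85103539 corticosterone UMIs. No doublet caller was run and no doublet was removed; an alternative leaves out the 6% of cells with the most UMIs. Both libraries were clustered together (scanpy 1.11.5, leidenalg 0.10.2; 2000 variable genes, 30 components, 15 neighbours, resolution 0.5), and clusters were named X-like from markers of 17 classes. Where features repeated a symbol, the row listed first was used. CPM intervals are exact Poisson, ratio intervals exact conditional Poisson, shares exact binomial (Clopper-Pearson). The pipeline was tested on simulated data. Alternatives used edgeR 4.0.16 TMM factors and DESeq2 1.42.0 size factors for scaling only. Sequences and promoter positions are from RefSeq.

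Named genes are the 34 members; in the other 2 classes, members at 20 CPM or more; of each other list, those with the highest and lowest log2 ratio; and near-identical copies with a UMI. G6pdx, Taldo1 and Pgd in microglia-like cells were added after their values were seen. Members, lists and rules were chosen with earlier results of these data known.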

Additional observations from a re-analysis of the deposited data

How the results depend on the processing

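No paired analysis was possible because each group had 1 library, and for the same reason no replicate could be left out. In brackets after a count stands the share of all genes called in that direction under the same setting. Counts of members called in microglia-like cells (5 higher, 2 lower) became 1 lower with TMM (4.65%) and 1 lower with DESeq2 scaling (4.27%). With no filter on low values 8 were higher (11.7%). In cells with 3000 to 5000 UMIs (7.31%), in all cells (6.73%) and after thinning to 1000 UMIs (7.60%), 3 were higher. At a log2 threshold of 1, 0 were higher (1.80%) and 0 lower (1.29%) in microglia-like cells. In macrophage-like cells 0 were higher (2.22%) and 0 lower (1.08%), and in neutrophil-like cells 0 higher (1.93%) and 1 lower (4.08%). Macrophage-like counts (3 and 3) became 6 higher with no filter (19.1%), 6 higher at 3000 to 5000 UMIs (16.3%) and 1 higher after thinning (13.1%). They became 5 lower in barcodes with less microglia marker RNA (13.1%). At Leiden resolution 1, 8 were higher (12.2%) and 1 lower (12.5%), with a median of 0.31. Neutrophil-like counts (5 and 4) became 10 higher with TMM (16.8%), where the members' median was 0.40, and 10 higher under a marker rule per cell (10.7%). Without the 6% of cells with the most UMIs 2 were higher (12.5%), and in barcodes with less microglia marker RNA 0 were (10.3%). With no filter 7 were lower (29.2%), and DESeq2 scaling gave a median of 0.38. The cause of these shifts was not tested, except that no filter counts more genes and a higher threshold fewer.

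The turns listed here cover only members whose main counting interval held values of a single sign. Some members with an interval spanning both signs turned too. Over the alternatives, Hk1 ranged from -0.16 to 0.075 and Vhl from -0.086 to 0.18 in microglia-like cells. In macrophage-like cells Slc2a1 ranged from -0.49 to 0.74, and in neutrophil-like cells Hk2 from -0.43 to 0.47. Among the members covered, directions turned in microglia-like cells for Mpc1 (0.0037 with DESeq2) and Pfkl (-0.030 under the rule per cell). In macrophage-like cells they turned at resolution 1 for Ldhb (0.32), Vhl (0.042), Bnip3 (0.059), Mpc1 (0.21) and Mpc2 (-0.11); at 3000 to 5000 UMIs for Hk2 (-0.14), Aldoa (-0.056), Pgk1 (-0.078), Slc16a3 (-0.78) and Bnip3 (0.014); in barcodes with less microglia marker RNA for Hk2 (-0.10), Slc16a3 (-0.0078) and Bnip3 (0.029); for Bnip3 under the rule per cell (0.0051); and for Hk2 without the 6% of cells with the most UMIs (-0.10) and after thinning (-0.067). In neutrophil-like cells they turned at 3000 to 5000 UMIs, in 81 and 46 cells, for Pgk1 (-0.068), Pgam1 (-0.43), Ldha (-0.034), Hif1a (0.18) and Mpc2 (-0.54). The cause was not tested. Alternatives by neutrophil-like cluster, without the cluster led by Ifit2 and with the unnamed cluster of few UMIs were chosen after seeing the data.

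With 1 library per group, intervals reflect counting error and not differences between animals, and Pfkp, Pfkm, Slc16a1 and Egln3, below 20 CPM in the 3 classes, were not counted there. Pfkp passed a mean of 20 CPM in the neutrophil-like barcodes with less microglia marker RNA (28.2 and 13.9 CPM, from 20 and 13 UMIs).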
